A study of Mus musculus with 8 samples.

Results

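The genes described here encode the carriers that move amino acids and their relatives across membranes, and the measurement is H3K4me3, a histone methylation mark that lies mainly at gene start sites, in lung tumor cells with and without *Gpx4*. The members were peaks of the deposited H3K4me3 table with gene symbols of the solute carrier families Slc1, Slc3, Slc6, Slc7, Slc36, Slc38 or Slc43. The family name had to be followed by the letter a and a number, so symbols with a further letter at the end were not taken. *Slc7a11* and *Slc3a2* were left out. The members came to 78 of 35486 peaks and to 44 of 20871 genes, and the rule used gene names and no measured value.

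Tumor cells were sorted as CD45-CD31-EpCAM+ cells from the lung tumors of KL mice, which carried KrasLSL-G12D/+ and Lkb1fl/fl, and of KLG4m/m mice, which carried Gpx4m/m in addition. Mice of both genotypes were infected through the nose with Ad-Cre and received tamoxifen, and the cells were taken at 10 weeks. In the Gpx4m/m allele Cre switches on the tamoxifen-dependent recombinase DreERT2, and tamoxifen then lets it cut exons out of *Gpx4*; the sources used here name no cell-type-specific promoter for Ad-Cre. There were 2 KL libraries (replicates 1 and 2) and 2 KLG4m/m libraries (replicates 3 and 4). The study gives as many mice per genotype in one place and another total of mice in its protocol. The p-values measure the spread between these libraries.

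Amino acids cross the plasma membrane on carriers that couple transport to sodium, to protons or to the exchange of another amino acid, and lysosomes carry their own set. The Slc1 family holds the glutamate transporters and the neutral amino acid exchangers, Slc6 the sodium- and chloride-coupled carriers of neurotransmitters, taurine, creatine and neutral amino acids, Slc7 the cationic carriers and the light chains that pair with a heavy chain of the Slc3 family, and Slc38 the sodium-coupled carriers of glutamine and alanine. In tumors these carriers are studied as the supply line for protein synthesis, mTORC1 signaling and glutathione. H3K4me3 marks promoters that can be transcribed and favours DNA rich in CG dinucleotides, but it is not a measure of the protein or of transport.

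The promoter sequences of 6 members are shown. They cover 3 of the 5 promoters that fell in KLG4m/m cells, and relatives of *Slc1a1* whose windows hold many or few CG dinucleotides. The *Slc1a2* window may lie at another start than its peak, as set out below. The windows run from 250 bases before to 50 bases after a RefSeq start on build GRCm38.p6, with CG dinucleotides in capitals. *Slc1a1* (chr19:28834885-28835184, plus strand), *Slc36a4* (chr9:15709488-15709787, plus strand) and *Slc7a6* (chr8:106168604-106168903, plus strand, the first of 2 overlapping starts) are promoters whose H3K4me3 was lower in KLG4m/m cells. *Slc1a4* (chr11:20332664-20332963, minus strand) had the highest single peak among the 44 genes, and *Slc1a6* (chr10:78780246-78780545, plus strand) and *Slc1a2* (chr2:102706188-102706487, plus strand) were weakly marked relatives of *Slc1a1*.
Slc1a1: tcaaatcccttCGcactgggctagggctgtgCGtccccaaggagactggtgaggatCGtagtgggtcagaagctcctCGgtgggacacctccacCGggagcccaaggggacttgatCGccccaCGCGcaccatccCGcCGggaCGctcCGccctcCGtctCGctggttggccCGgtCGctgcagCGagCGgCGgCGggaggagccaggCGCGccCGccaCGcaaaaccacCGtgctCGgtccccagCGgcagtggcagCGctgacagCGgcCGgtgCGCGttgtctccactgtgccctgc
Slc36a4: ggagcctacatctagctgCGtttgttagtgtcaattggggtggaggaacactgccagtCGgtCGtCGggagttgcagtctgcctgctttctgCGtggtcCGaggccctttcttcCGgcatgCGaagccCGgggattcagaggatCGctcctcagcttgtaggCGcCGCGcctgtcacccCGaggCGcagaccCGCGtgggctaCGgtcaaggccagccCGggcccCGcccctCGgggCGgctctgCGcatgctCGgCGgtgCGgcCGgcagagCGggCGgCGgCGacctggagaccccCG
Slc7a6: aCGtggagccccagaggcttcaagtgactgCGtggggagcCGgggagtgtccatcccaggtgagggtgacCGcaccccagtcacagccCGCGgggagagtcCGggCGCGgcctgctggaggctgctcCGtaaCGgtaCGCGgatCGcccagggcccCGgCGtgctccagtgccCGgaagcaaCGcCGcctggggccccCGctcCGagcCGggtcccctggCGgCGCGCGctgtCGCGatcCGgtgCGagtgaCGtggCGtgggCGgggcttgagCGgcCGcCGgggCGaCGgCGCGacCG
Slc1a4: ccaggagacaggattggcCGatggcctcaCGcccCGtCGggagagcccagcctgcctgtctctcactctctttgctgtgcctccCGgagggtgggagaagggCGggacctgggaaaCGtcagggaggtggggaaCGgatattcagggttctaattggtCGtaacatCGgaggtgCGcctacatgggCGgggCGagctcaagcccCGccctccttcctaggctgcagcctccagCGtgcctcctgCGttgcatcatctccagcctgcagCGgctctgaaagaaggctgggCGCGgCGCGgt
Slc1a6: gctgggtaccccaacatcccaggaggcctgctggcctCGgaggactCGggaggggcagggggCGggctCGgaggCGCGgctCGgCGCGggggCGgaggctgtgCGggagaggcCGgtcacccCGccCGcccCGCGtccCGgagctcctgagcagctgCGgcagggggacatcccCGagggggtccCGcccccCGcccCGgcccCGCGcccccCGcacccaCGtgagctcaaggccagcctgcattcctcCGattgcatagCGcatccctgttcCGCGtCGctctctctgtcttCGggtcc
Slc1a2: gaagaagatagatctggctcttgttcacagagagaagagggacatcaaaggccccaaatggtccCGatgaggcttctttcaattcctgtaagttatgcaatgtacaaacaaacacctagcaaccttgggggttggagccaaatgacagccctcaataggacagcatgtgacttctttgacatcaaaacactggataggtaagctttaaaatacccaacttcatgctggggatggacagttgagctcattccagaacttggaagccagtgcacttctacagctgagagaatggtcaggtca
The CG dinucleotides numbered 32 in *Slc1a1*, 32 in *Slc36a4*, 41 in *Slc7a6*, 21 in *Slc1a4*, 32 in *Slc1a6* and 1 in *Slc1a2*. Over the 21 member genes with 1 start in the table and a promoter peak, Spearman's rho of the CG count with the CPM of the strongest peak was 0.31, a description over points that share the same 4 libraries. In all, 34 of the 44 genes matched the RefSeq promoter table, with 51 starts that held a median of 10 CG dinucleotides (range 1 to 42), against a median of 7 (range 0 to 67) over all 32851 starts. The ATF4-bound amino acid response element, searched as TGATGCAAT on both strands, was in 0 of the 51 member starts and in 0.192% of all starts. The antioxidant response element, searched as TGACNNNGC on both strands, was in 8 of the 51, at *Slc36a1*, *Slc38a2*, *Slc43a1*, *Slc6a9*, *Slc7a1* and *Slc7a6*, and in 12.4% of all starts. A match of letters is a description and not a bound site, and a missing match says only that the letters are not in this window. The deposited peaks lie on a later genome build, so these windows could not be set under the peaks base by base. A window may also lie at another start of its gene than the peak does. On chromosome 2 the *Slc1a2* window (from 102706188) lies further from its peak (from 102489277) than the *Slc43a1* window (from 84840073) from its own (from 84670671). The *Slc38a11* window (from 65363977) also lies further from its peak (from 65172391) than that of *Slc43a1*. The CG counts of *Slc1a2* and *Slc38a11*, both among the 21 points of the rho, may thus not be those of their marked promoters.

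Each library held between 3244495 and 3463731 reads in peaks. Peak levels are given as CPM, the reads of a peak scaled to the library's reads in all peaks with TMM factors, and since every member peak spans 400 bp, CPM can be compared between peaks per length. Between libraries of one genotype the counts differed by a chi-square of 1.13 (KL) and 1.23 (KLG4m/m) per degree of freedom, and between libraries of different genotypes by 2.37 to 2.80. The *Gpx4* promoter lies outside the deleted exons, so it cannot check the genotype, and it held 242 and 236 reads in KL and 304 and 301 in KLG4m/m libraries (log2 fold change 0.40 ± 0.09 SE, adjusted p = 0.00854). Of the 2 peaks of *Stk11*, the gene of Lkb1, which both genotypes lose, the second rose in KLG4m/m cells (197 and 173 against 246 and 299 reads, log2 fold change 0.62 ± 0.12, adjusted p = 0.00140).

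The transporter genes ranged widely in H3K4me3 at their strongest peak. *Slc1a4*, an exchanger of alanine, serine and cysteine, stood at 108 and 101 CPM in KL and at 107 and 108 CPM in KLG4m/m libraries. *Slc38a6*, a member of the glutamine transporter family, stood at 97.2 and 91.9 against 100.3 and 105 CPM. *Slc7a1*, the main carrier of arginine and lysine, stood at 87.5 and 77.5 against 86.1 and 79.3 CPM. These 3 had the highest single peaks. *Slc1a4* lay above *Slc38a6* in each library, although their ranges over the libraries overlapped. The values of *Slc38a6* all lay above those of *Slc7a1*. At the other end stood *Slc36a2*, a proton-coupled carrier of glycine and proline, with 12 and 19 reads against 10 and 5. *Slc6a15*, a carrier of branched-chain amino acids and proline known from neurons, had 16 and 15 reads against 6 and 4. *Slc6a17*, a synaptic vesicle carrier, had 15 and 4 reads against 13 and 3, so its libraries of one genotype differed more than the genotypes did. The strongest peak lay above 95.7% of all promoter peaks for *Slc1a4* and above 0.152% of them for *Slc6a17*.

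**Figure D1:**
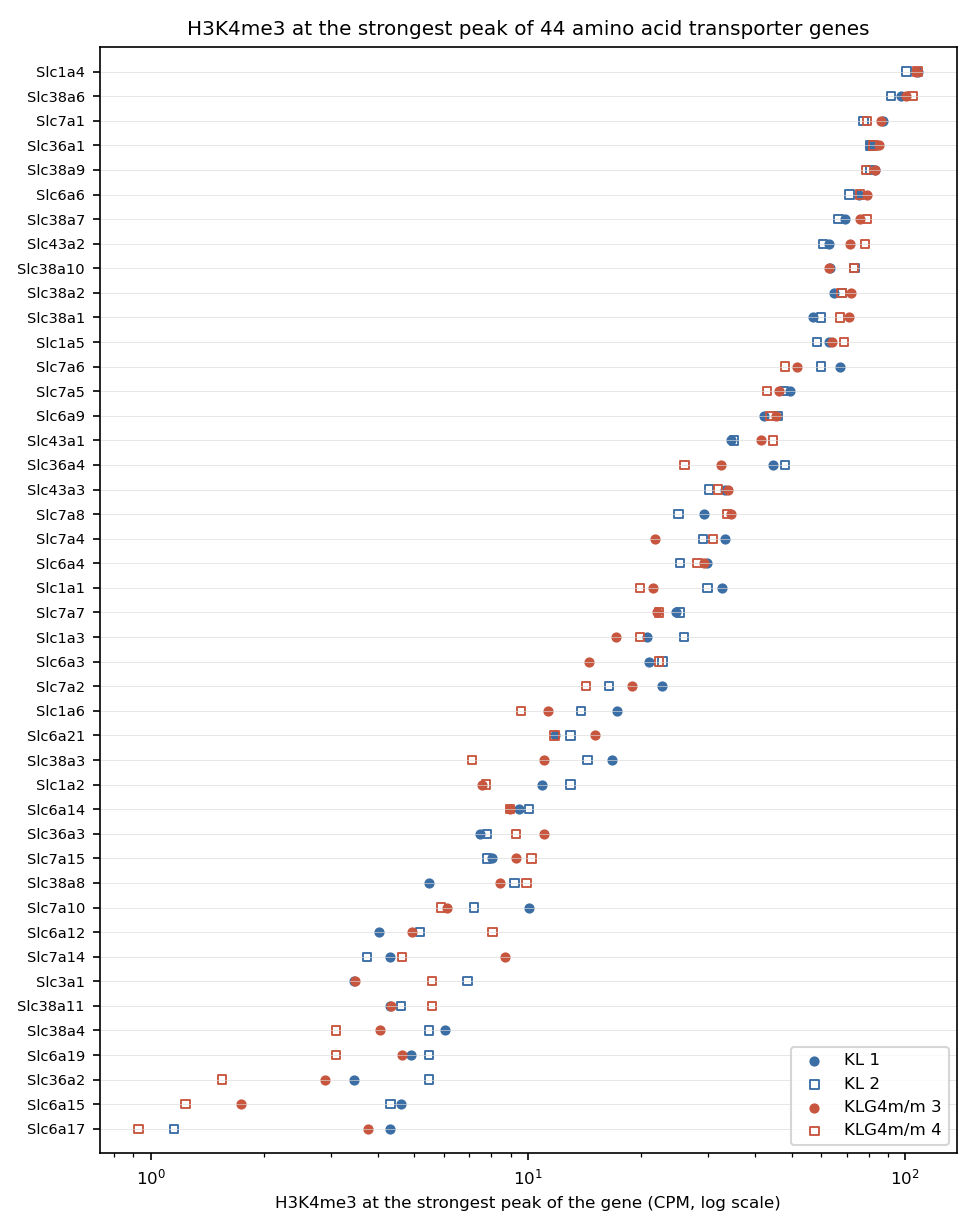
H3K4me3 at the strongest peak of each of the 44 genes, in CPM on a log scale, with 1 point for each library (blue KL, red KLG4m/m). The genes fall from *Slc1a4* at 106 CPM to *Slc6a17* at 2.54 CPM on average. The red points lie left of the blue ones at several genes, among them *Slc36a4* and *Slc1a1*, and right of them at others, such as *Slc38a6* and *Slc43a2*.

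Of the 44 genes, 38 had a peak within 1 kb of a start site. These 42 promoter peaks had a median of 27.1 CPM, and the other 36 peaks, of 20 genes, a median of 6.85 CPM. Most genes (27) had 1 peak, 11 had 2 peaks, and *Slc38a2* had the most with 8. A further 15 genes whose symbols fit the rule were not analysed here, because no peak carried their symbol. They include *Slc6a8*, the creatine transporter, *Slc7a9*, a light chain of renal cystine transport, and *Slc38a5* of system N.

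The comparison of KLG4m/m with KL cells asks how the loss of *Gpx4* after tumor onset goes with the promoter mark at these carriers. Most of them did not pass the test: 1 of the 78 peaks rose and 7 fell, at an adjusted p under 0.05 over all peaks. Over all 35486 peaks 3.10% rose and 5.52% fell, and over all peaks within 1 kb of a start site 2.89% rose and 8.43% fell, against 0 and 5 of the 42 member promoter peaks. Of the other peaks 3.29% rose and 2.82% fell, against 1 and 2 of the 36 member peaks. The share that fell is thus near the background. The median log2 fold change was −0.03 over the member peaks and 0.01 over all peaks. In 21 member peaks both KLG4m/m libraries lay above both KL libraries and in 25 below, against 27.5% and 26.6% of all peaks. At the level of genes, with the reads of all peaks of a gene summed, *Slc6a12* rose and *Slc36a4*, *Slc1a1*, *Slc38a3*, *Slc7a6* and *Slc6a15* fell, where 5.38% of all genes rose and 9.63% fell. The median over the 44 genes was −0.08, and over all genes 0.00. With upper-quartile factors, which moved the median of all peaks up by 0.06, 3 member peaks rose and 5 fell, and over all peaks 2122 rose and 1719 fell, against 1099 and 1960 with TMM. DESeq2 called 0 member peaks, with 30 higher and 223 lower among all peaks, and at an unadjusted p under 0.05 it had 1 member peak higher and 4 lower and 2735 of all peaks in either direction, against 7 and 13 member peaks and 8738 of all peaks (24.6%) with edgeR. Without KLG4m/m replicate 3 or without KLG4m/m replicate 4 edgeR called 0 peaks in the whole table, without KL replicate 1 it called 1 member peak higher and 3 lower (702 and 1459 of all peaks), and without KL replicate 2 it called 3 higher and 4 lower (484 and 998 of all peaks).

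The sorted cells were checked against marker lists, since fewer cells of a kind and less of the mark per cell cannot be told apart in bulk chromatin. The counts of summed genes below stand beside 5.38% of all genes that rose and 9.63% that fell. Markers of alveolar type 2 cells, the surfactant-making cells from which such tumors can arise, fell at 5 of 8 genes (*Sftpa1*, *Sftpb*, *Sftpd*, *Lamp3* and *Etv5*; median −0.54), and their summed level was 354 to 373 CPM in KL and 274 to 279 CPM in KLG4m/m libraries. *Epcam*, one of the sorting markers, fell at its promoter (142 and 149 against 77 and 76 reads), and of 9 epithelial genes it and *Cdh1* fell, with sums of 397 CPM in both KL libraries and 350 to 361 CPM in KLG4m/m. B cell markers rose at 6 of 9 genes (median 0.73), with sums of 151 to 168 against 228 to 238 CPM. T cell markers rose at 2 of 10 genes (sums of 380 to 391 against 430 to 458 CPM), and macrophage markers rose at 2 and fell at 1 of 9 (370 to 381 against 420 to 426 CPM). Among endothelial markers 1 rose and 1 fell of 10 (294 to 332 against 298 to 317 CPM), and among fibroblast markers 1 of 4 rose (74.1 to 80.6 against 80.8 to 82.4 CPM). No marker with a listed peak was at 0 in the sum of its peaks, and the markers *Sftpc*, *Slc34a2*, *Krt7*, *Cd79a*, *Marco* and 6 of the fibroblast list were not analysed here. The part of these lists in the transporter results was not tested.

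**Figure D2:**
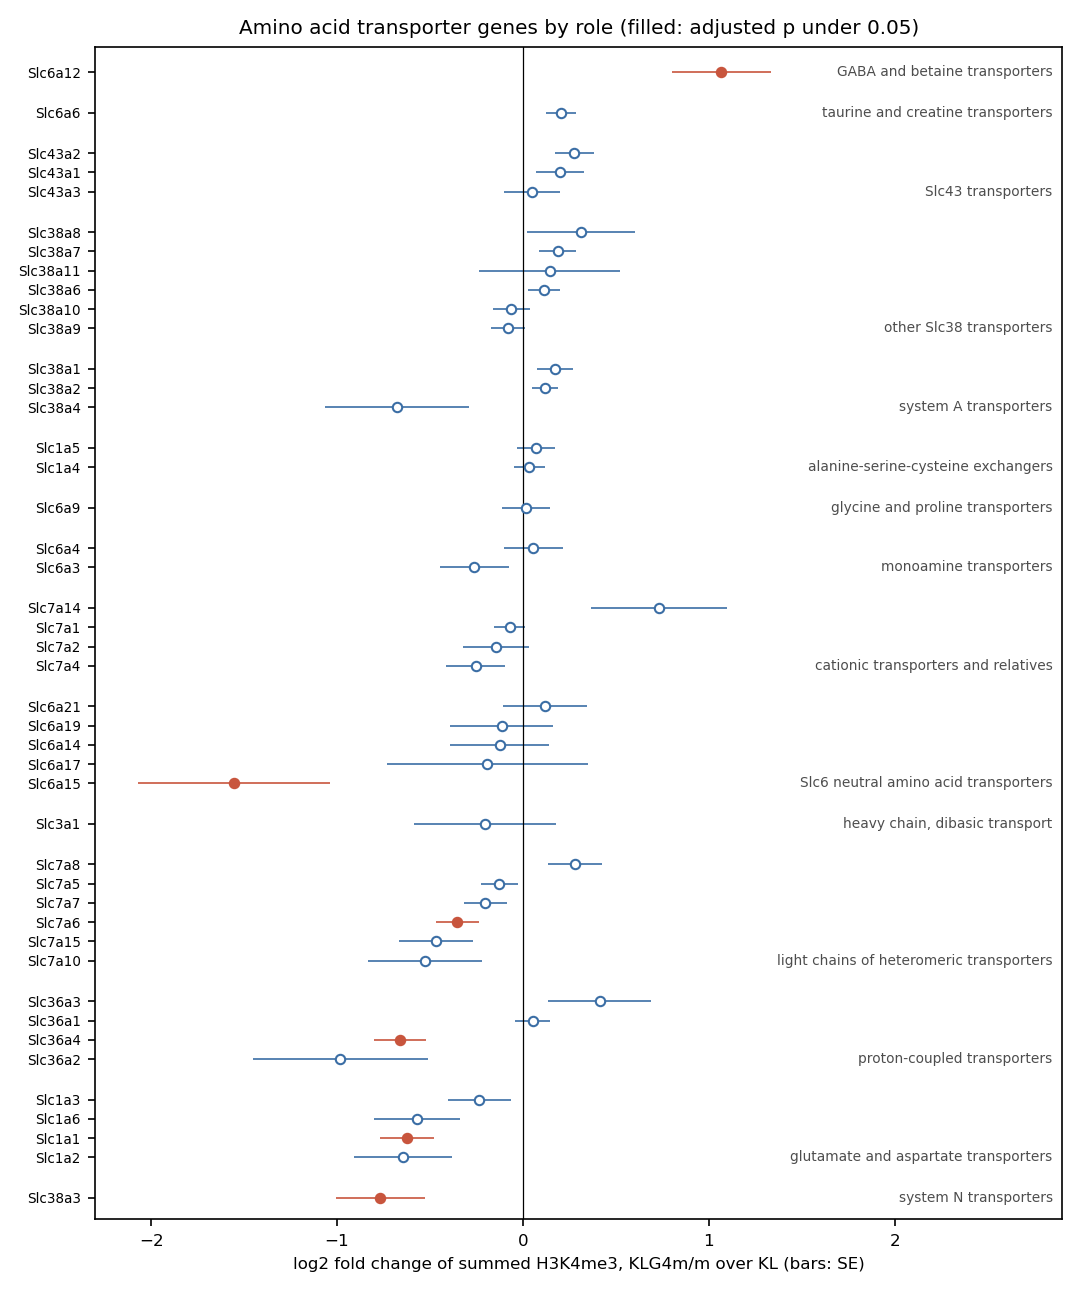
Log2 fold change of summed H3K4me3 (KLG4m/m over KL) for the 44 genes, grouped by role, with the standard error as bars and filled points for genes with an adjusted p under 0.05. *Slc6a12* is the filled point to the right of 0, and the 5 filled points to the left are *Slc6a15*, *Slc38a3*, *Slc36a4*, *Slc1a1* and *Slc7a6*.

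The glutamate and aspartate transporters, which take up acidic amino acids against a steep gradient, had log2 fold changes below 0 in all 4 genes with a peak. Of these genes 1 passed the test, where 9.63% of all genes fell. Here and below, a value in brackets after the reads of a peak is the log2 fold change of that peak, KLG4m/m over KL, with its SE, and values of summed genes are named as such. *Slc1a1*, which encodes EAAT3, a carrier that also takes up cysteine, fell at its promoter (chr19:28812060-28812460 in the files' build) from 114 and 104 reads to 74 and 64. That was 31.4 ± 2.01 CPM in KL and 20.6 ± 1.16 CPM in KLG4m/m cells (SD, n = 2 each), a log2 fold change of −0.60 ± 0.16 (SE; adjusted p = 0.0176). Its second peak, 6.952 kb upstream, had 42 and 33 against 21 and 24 reads, and the groups did not overlap at either peak (log2 fold change at the second −0.68 ± 0.27, adjusted p = 0.119). With both peaks summed the gene stood at −0.62 ± 0.15 (adjusted p = 0.00100). *Slc1a2*, the main glutamate carrier of astrocytes, had 38 and 45 against 26 and 25 reads (−0.64 ± 0.25, adjusted p = 0.111). *Slc1a6*, known from the cerebellum, had 60 and 48 against 39 and 31 reads (−0.57 ± 0.22, adjusted p = 0.111). For *Slc1a3*, whose EAAT1 protein carries aspartate and glutamate, the promoter held 72 and 90 against 59 and 64 reads, while a weak peak 2.798 kb upstream held 13 and 12 against 13 and 17, and neither passed. Both KLG4m/m libraries lay below both KL libraries at 5 of the 6 peaks of this group, as they did at 26.6% of all peaks and at 35.6% of all promoter peaks under 30 CPM. The sums over the 4 genes were 97.8 and 95.6 CPM in KL and 67.4 and 69.4 CPM in KLG4m/m. The alveolar type 2 markers, which also fell, moved the same way between the same libraries, and their part in this was not tested.

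The alanine-serine-cysteine exchangers of the same family did not pass the test. *Slc1a5*, which encodes the glutamine carrier ASCT2, had 218 and 203 against 221 and 222 reads at its promoter, and *Slc1a4* had 376 and 350 against 368 and 348. The log2 fold changes of the summed genes were 0.07 ± 0.10 (adjusted p = 0.70) and 0.03 ± 0.09 (adjusted p = 0.834). An intronic peak of *Slc1a5*, 11.333 kb into the gene, held 28 and 36 against 23 and 24 reads and did not pass either.

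The light chains of the heteromeric transporters are exchangers of neutral or dibasic amino acids that need a heavy chain to reach the membrane. Of 6 genes 1 fell and 5 did not pass the test, where 9.63% of all genes fell. *Slc7a6*, the y+LAT2 exchanger of arginine for glutamine, fell at its promoter (chr8:106895087-106895487) from 234 and 208 to 178 and 155 reads, or from 63.6 ± 5.24 to 49.8 ± 2.57 CPM (log2 fold change −0.35 ± 0.11, adjusted p = 0.0490). The promoter of its neighbour *Pla2g15*, at a distance of −18.2 kb, had 310 and 263 against 300 and 285 reads (0.09 ± 0.10, adjusted p = 0.617). *Slc7a7*, the related y+LAT1 exchanger, had 5 peaks at several start sites. Its stronger promoter had 86 and 88 against 76 and 72 reads, and the promoter of NM_001253679.1 (chr14:54655040-54655440) fell from 32 and 42 to 18 and 20 reads (−0.90 ± 0.28, adjusted p = 0.0462). At the level of the gene the change was −0.20 ± 0.12 (adjusted p = 0.236). The lower peak of *Slc7a7* was also compared with the other 4 peaks of the gene, a test added after the values were seen, and did not differ from them after adjustment (adjusted p = 0.272 by edgeR). Of the 22232 peaks of genes with several peaks 1.30% passed that test, and none of them was a member.

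*Slc7a5*, the LAT1 carrier of leucine and other large neutral amino acids, had 172 and 166 against 160 and 139 reads at its promoter. With its 3 peaks summed it stood at −0.13 ± 0.10 (adjusted p = 0.412). *Slc7a8*, the LAT2 carrier of neutral amino acids, had the opposite sign at its promoter, with 102 and 87 against 119 and 109 reads (0.33 ± 0.15, adjusted p = 0.169). *Slc7a10*, a carrier of serine, stood at 35 and 25 against 21 and 19 reads, and did not pass the test. *Slc7a15* was called at 1 of its 2 peaks, neither of which lies near its own start. The peak 26.484 kb downstream of its start (chr12:8622182-8622582), in exon 3 of the noncoding gene 5033421B08Rik, fell from 45 and 38 to 19 and 12 reads (−1.36 ± 0.29, adjusted p = 0.00400), while the peak in exon 4 of the same gene had 28 and 27 against 32 and 33 reads. The difference of the lower peak from the other one did not pass after adjustment (adjusted p = 0.129 by edgeR). The heavy chain partner that the rule keeps, *Slc3a1* of cystine and dibasic transport, had 1 weak peak with 12 and 24 against 12 and 18 reads. The 2 genes the rule left out, the heavy chain *Slc3a2* and the cystine carrier *Slc7a11*, stood at 0.14 ± 0.07 and 0.09 ± 0.14 over their peaks (adjusted p = 0.165 and 0.730).

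**Figure D3:**
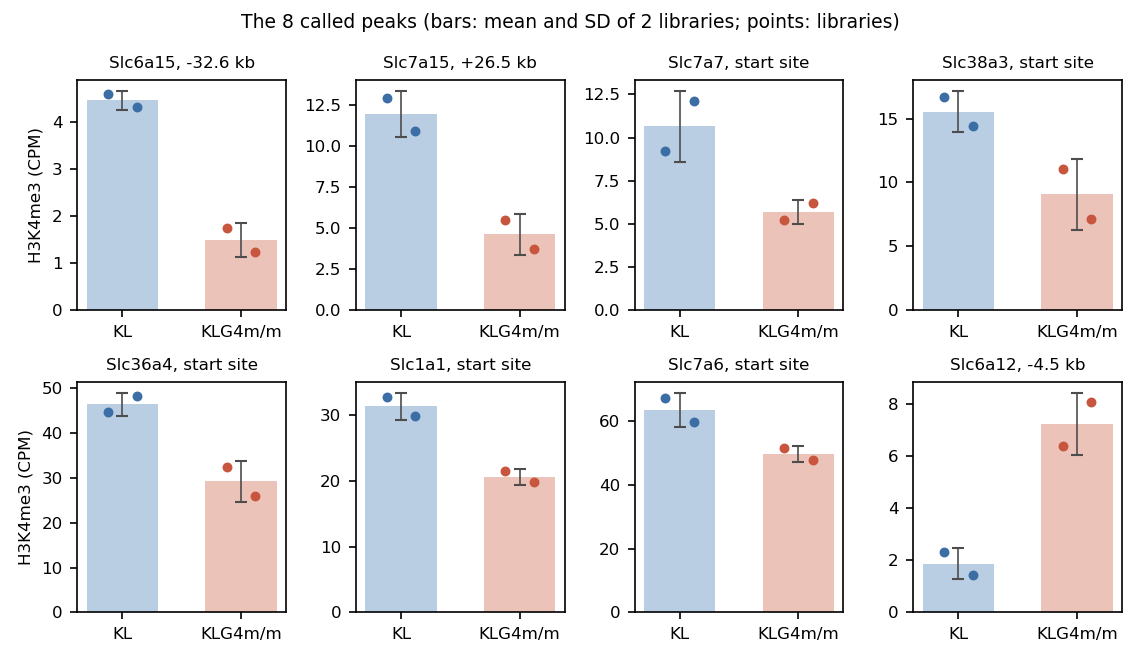
H3K4me3 in CPM at the 8 called peaks, named by gene and by distance from the start site, with bars for the mean and SD of 2 libraries and points for the libraries. In every panel the libraries of the genotypes do not overlap, as at 27.5% (higher) and 26.6% (lower) of all peaks. The 8 peaks were picked by the test on these same libraries, so this separation adds no support. The KLG4m/m bar is the higher one at *Slc6a12* alone.

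The Slc36 carriers, grouped here as proton-coupled transporters, move small amino acids, some of them with protons and some of them out of lysosomes. *Slc36a4*, a high-affinity carrier of proline and tryptophan, fell at its single peak, the promoter at chr9:15621071-15621471, from 155 and 167 to 112 and 84 reads. That was 46.3 ± 2.48 CPM in KL and 29.2 ± 4.58 CPM in KLG4m/m cells (log2 fold change −0.66 ± 0.14, adjusted p = 0.00378), the lowest adjusted p of the 78 peaks. *Slc36a1*, the lysosomal carrier PAT1, had 280 and 281 against 294 and 266 reads (0.05 ± 0.09, adjusted p = 0.762), at an average of 82.3 CPM against 37.8 CPM for *Slc36a4*. *Slc36a1*, *Slc36a2* and *Slc36a3* lie side by side within 49.772 kb on chromosome 11, where none of the 3 peaks was called and the log2 fold changes ran from −0.98 to 0.41.

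The Slc38 family carries glutamine and other small neutral amino acids. In system N, *Slc38a3* (SNAT3), which moves glutamine in either direction, fell at its promoter (chr9:107544299-107544699) from 58 and 50 to 38 and 23 reads (−0.77 ± 0.24, adjusted p = 0.0425). The system A carriers *Slc38a1* and *Slc38a2* share a stretch of 175.775 kb on chromosome 15 with 12 peaks, and none of them was called. The promoter of *Slc38a1* had 198 and 208 against 245 and 217 reads (0.24 ± 0.10, adjusted p = 0.143). At *Slc38a2* (SNAT2), a carrier induced when amino acids are short, the strongest of 8 peaks lay 9.922 kb upstream of the start and not at it. This peak had 225 and 236 against 248 and 219 reads, and the peak 0.339 kb upstream of the start had 137 and 134 against 167 and 129. The summed gene stood at 0.12 ± 0.07 (adjusted p = 0.251), and its peaks ran from −0.27 to 1.08. *Slc38a4*, the third carrier of the system, was weak and stood at 21 and 19 against 14 and 10 reads, without passing the test.

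Of the other Slc38 genes, *Slc38a9* encodes the arginine sensor of the lysosome that signals to mTORC1. It had 290 and 280 against 287 and 254 reads at its promoter (−0.02 ± 0.09, adjusted p = 0.931). *Slc38a6*, *Slc38a7* and *Slc38a10* were strongly marked as well, at 98.5, 72.7 and 68.2 CPM, and none of the 6 genes in this group was called.

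**Figure D4:**
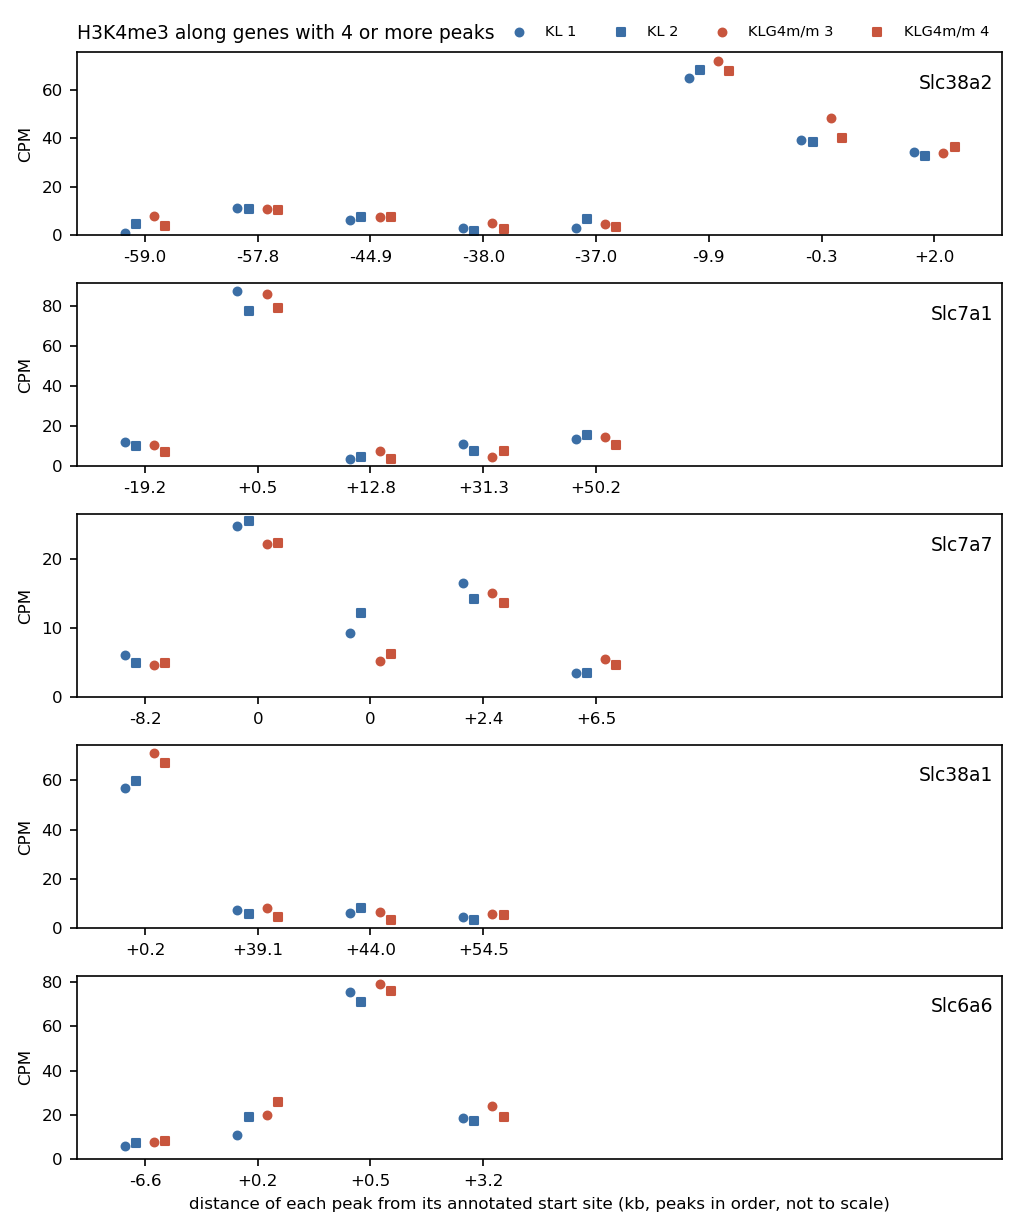
H3K4me3 in CPM at each peak of the 5 genes with 4 or more peaks, in order of the distance from the annotated start site in kb (not to scale), with 1 point for each library. The 2 peaks at 0 of *Slc7a7* belong to different start sites, and the right-hand one is the only peak shown that was called.

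The cationic carriers did not pass the test. *Slc7a1* (CAT1) had 304 and 269 against 297 and 256 reads at its promoter, with a log2 fold change of 0.01 ± 0.10 (adjusted p = 0.982). Its other 4 peaks lie in introns or upstream, at 4.90 to 13.7 CPM, and the sum of all 5 stood at −0.07 ± 0.08. *Slc7a2* (CAT2), which supplies arginine to nitric oxide synthase, had 79 and 57 against 65 and 46 reads at its stronger promoter (−0.24 ± 0.20, adjusted p = 0.503). *Slc7a4* and *Slc7a14*, relatives of less settled function, were not called either.

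The Slc6 carriers held the only peak that rose. *Slc6a12*, the betaine and GABA carrier BGT1, rose at a weak peak 4.525 kb upstream of the listed start (chr6:121314608-121315008). The deposited annotation places this peak in a 3' UTR and names no gene for it. As the peak lies before the start of *Slc6a12*, that 3' UTR would belong to another gene. The peak had 8 and 5 reads in KL and 22 and 26 in KLG4m/m libraries, or 1.87 ± 0.61 and 7.22 ± 1.18 CPM (log2 fold change 1.92 ± 0.41, adjusted p = 0.00419). The promoter peak of the gene had 14 and 18 against 17 and 26 reads, whose groups overlapped (0.48 ± 0.35, adjusted p = 0.416). The summed gene passed the test at 1.07 ± 0.27 (adjusted p = 0.00223), and with only the peak nearest the start it did not. At the other end, a peak assigned to *Slc6a15* from 32.575 kb upstream (chr10:103170345-103170745, intergenic) fell from 16 and 15 to 6 and 4 reads (−1.55 ± 0.50, adjusted p = 0.0490). Both of these calls rest on peaks with few reads and far from the start of the gene.

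*Slc6a6*, the taurine carrier, had 4 peaks. At all of them both KLG4m/m libraries lay above both KL libraries in CPM, as they did at 27.5% of all peaks. The main promoter had 262 and 247 against 273 and 245 reads, a log2 fold change of 0.08 ± 0.10. At a peak 0.177 kb from another annotated start the reads were 38 and 66 against 68 and 84 (0.60 ± 0.22, adjusted p = 0.0788). The sum of the 4 peaks stood at 0.21 ± 0.08 (adjusted p = 0.0665), so the test was not passed. *Slc6a9*, the glycine carrier GLYT1, had 147 and 160 against 157 and 142 reads (0.02 ± 0.12, adjusted p = 0.946). *Slc6a14*, a broad carrier of neutral and cationic amino acids, had 33 and 35 against 31 and 29 reads (−0.12 ± 0.25, adjusted p = 0.806). The serotonin carrier gene *Slc6a4* and the dopamine carrier gene *Slc6a3*, known from neurons, had promoter peaks of 28.2 and 20.1 CPM and were not called.

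The Slc43 genes encode carriers of large neutral amino acids (*Slc43a1* and *Slc43a2*) and of purine bases (*Slc43a3*), and none of the 3 passed the test. *Slc43a2*, the LAT4 carrier, had 218 and 210 against 246 and 253 reads at its promoter (0.28 ± 0.10, adjusted p = 0.0853). *Slc43a1*, the LAT3 carrier, had 120 and 122 against 143 and 144 reads at its promoter (0.30 ± 0.13, adjusted p = 0.149), and an intronic peak 10.468 kb downstream held 21 and 25 against 17 and 14 reads and did not pass. *Slc43a3* had 116 and 105 against 117 and 103 reads (0.05 ± 0.14, adjusted p = 0.868).

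Strongly and weakly marked promoters of the transporter genes leaned to different sides of 0. Among the 19 promoter peaks that averaged 30 CPM or more, 14 had a log2 fold change above 0, with a median of 0.05, and of the 23 under 30 CPM 16 were below 0, with a median of −0.25. In 10 of the strong peaks both KLG4m/m libraries lay above both KL libraries and in 3 below, and in the weak peaks the numbers were 1 and 12. Over all promoter peaks the medians on the same sides of 30 CPM were 0.03 and −0.10, with non-overlapping groups in 31.9% (higher) and 24.7% (lower) of the strong and in 22.0% and 35.6% of the weak. The medians of all promoters had the same signs, and no test of the difference between the members and all promoters was made. Pearson's r of the log2 level with the log2 fold change was 0.35 over the 42 member promoter peaks and 0.16 over all 17073. Spearman's rho over the same peaks was 0.29 and 0.19. Beyond 1 kb, Pearson's r was −0.08 over the 36 member peaks and 0.13 over all 18413. In each case the points share the same 4 libraries. The limit of 30 CPM was chosen after the values were seen, and the 5 strong promoters below 0 were those of *Slc36a4*, *Slc7a6*, *Slc7a5*, *Slc38a9* and *Slc38a10*.

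**Figure D5:**
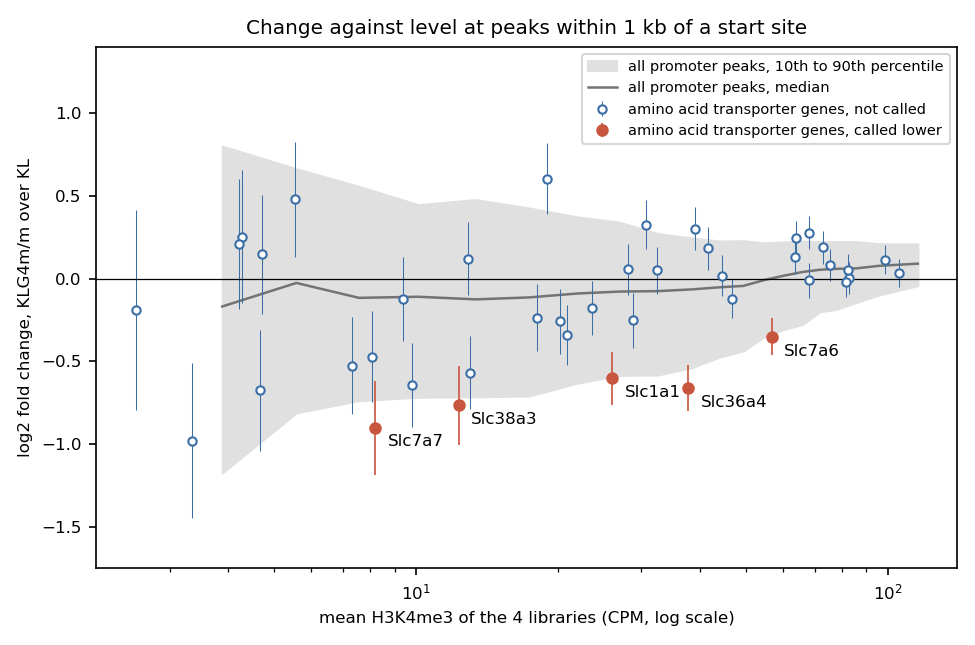
Log2 fold change (KLG4m/m over KL, with SE bars) against the mean H3K4me3 of the 4 libraries in CPM on a log scale, for the 42 member peaks within 1 kb of a start site. The line and the band show the median and the 10th to 90th percentile of all promoter peaks by level, and the 5 filled points are the promoters that fell.

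Among other genes of amino acid use, few passed the test at the level of genes. Of 9 other amino acid and peptide carriers 1 fell, *Mfsd12*, which moves cysteine into melanosomes and lysosomes (153 and 172 against 109 and 78 reads, −0.74 ± 0.14, adjusted p = 4.9e-05). Of 10 enzymes of glutamine and glutamate 1 rose, *Glul*, the glutamine synthetase (260 and 334 against 357 and 357 reads, 0.32 ± 0.09, adjusted p = 0.00849). None of 11 enzymes of serine, glycine, proline and asparagine synthesis was called (median 0.17). Of 10 genes of the amino acid starvation response 2 rose and 0 fell, *Ddit3* (CHOP; 0.30 ± 0.08, adjusted p = 0.00487) and *Cebpb* (0.30 ± 0.11, adjusted p = 0.0368). Of 26 genes of amino acid sensing by mTORC1 1 rose, the Ragulator subunit *Lamtor1* (0.29 ± 0.09, adjusted p = 0.0241), and 1 fell, the GATOR2 subunit *Mios* (187 and 183 against 111 and 90 reads, −0.83 ± 0.14, adjusted p = 1.6e-06). In the breakdown of branched-chain amino acids *Bcat1*, the cytosolic aminotransferase, rose (88 and 90 against 140 and 128 reads, 0.64 ± 0.15, adjusted p = 8.7e-04), and *Bckdhb*, a subunit of the dehydrogenase, fell (−0.44 ± 0.12, adjusted p = 0.00702), of 8 genes. Among 12 enzymes of arginine, polyamines and tryptophan *Ido1* rose (0.49 ± 0.16, adjusted p = 0.0253) and *Srm*, the spermidine synthase, fell (214 and 237 against 139 and 115 reads, −0.77 ± 0.12, adjusted p = 6.4e-07). The medians of these lists lay between −0.22 and 0.17, beside 0.00 over all genes, and the shares called were read against 5.38% higher and 9.63% lower.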

How the data were processed

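H3K4me3 was profiled in 4 libraries of sorted tumor cells. The 4 H3K27ac libraries of the series were not analysed here. Per the labels and the methods, the authors trimmed reads (Trim Galore 0.6.10), mapped them with BWA 0.7.15, removed duplicates with Picard 2.17.3 and low-quality and mitochondrial reads, and called peaks with MACS2 2.2.7.1; the methods name HOMER 4.11.1 for genes. The assay is called CUT&Tag, although the protocol describes cleavage by pAG-MNase. The methods name Ensembl 94 as the mapping genome, a release on GRCm38, but the contig names and positions in the table are those of a later build, so no sequence was read by them. How peaks were merged over libraries is not given in the sources used here. The deposited table holds whole-number counts per peak, and CPM that the authors scaled to reads in listed peaks, so a change by one factor at all peaks would not be visible. Its columns of the authors' comparison (log2 fold change, average log2 CPM, an F score, p-value and adjusted p-value) were not used.

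Counts were tested with edgeR 4.0.16 (quasi-likelihood, TMM, no covariate, no filter; R 4.3.3) over all 35486 peaks and, summed by symbol, over 20871 genes, two-sided, with Benjamini-Hochberg adjustment and a threshold of 0.05. The SE is the size of the log2 fold change divided by the square root of F. Libraries were grouped by the genotype in the labels. Alternatives were DESeq2 1.42.0, limma 3.58.1 on log2(CPM + 1) with and without median centring, scaling by total reads, upper-quartile factors, a minimum of 10 CPM, other ways to take peaks of a gene, and leaving out each library. A peak was also compared with its gene's other peaks (edgeR diffSpliceDGE), added after the data were seen. The test was tried on simulated counts with 200 known 2-fold changes, drawn with the dispersion fitted to these data. The changes were set only at peaks above a minimum number of reads, so calls at peaks with few reads were not covered. Counting error is a large part of peaks with few reads, and duplicates were removed without molecular identifiers. The named genes were all called member peaks, a list of main carriers, the 3 highest and 3 lowest genes, *Gpx4* and *Stk11*, the genes left out, and called genes of the other lists; other members were named to complete their role group after their values were seen. The members and lists were chosen with earlier results of these data known. Sequences came from RefSeq (GRCm38.p6), matched by symbol; those of *Slc38a3*, *Slc7a4*, *Slc7a2*, *Slc1a5*, *Slc6a15*, *Slc38a1*, *Slc6a6*, *Slc36a2*, *Slc43a3* and *Slc7a5* were not used here.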

Additional observations from a re-analysis of the deposited data

How the results depend on the processing

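The numbers of member peaks called higher and lower were 1 and 7 with edgeR and TMM. They were 0 and 0 with DESeq2, 3 and 5 with upper-quartile factors, 0 and 4 with a minimum of 10 CPM (which left 38 of the 78 peaks), and 1 and 3 with limma centred on the median. Leaving out 1 library gave 0 to 3 higher and 0 to 4 lower, and 0 of both without KLG4m/m replicate 3 or without KLG4m/m replicate 4, where no peak of the whole table was called and the cause was not tested. For summed genes, 1 higher and 5 lower with edgeR, DESeq2 gave 0 and 0 (1 and 5 at an unadjusted p under 0.05), the peak nearest the start site gave 0 higher, and leaving out 1 library gave 0 to 1 higher and 0 to 4 lower. The median over member peaks, −0.03, became 0.028 with upper-quartile factors and ran from −0.064 to 0.016 when 1 library was left out. The 8 called peaks kept their direction in every alternative that could be fitted, and passed the threshold in 7 of 10 for *Slc36a4*, 6 of 9 for *Slc7a15* and *Slc6a12*, 6 of 10 for *Slc1a1*, 5 of 10 for *Slc38a3*, 3 of 10 for *Slc7a6*, and 2 of 9 for *Slc7a7* and *Slc6a15*. Alternatives added *Slc43a2* and a peak of *Slc6a6* (upper-quartile factors), and that peak and one of *Slc38a2* (without KL replicate 2). Signs turned only at genes that were not called: *Slc7a1* from −0.07 to 0.0067 with the peak nearest the start and 0.015 with promoter peaks, and *Slc7a2* from −0.14 to 0.26 with the peak nearest the start. When 1 library was left out, the ranges that crossed 0 were −0.18 to 0.024 for *Slc7a1*, −0.39 to 0.16 for *Slc7a2*, −0.0078 to 0.092 for *Slc1a4*, −0.61 to 0.38 for *Slc3a1*, −0.014 to 0.13 for *Slc43a3* and −0.038 to 0.087 for *Slc6a9*. No paired analysis was possible because the KL libraries carry the numbers 1 and 2 and the KLG4m/m libraries 3 and 4.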
